A study of Mus musculus with 75 samples.

Results

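The response of D1 nuclei to a cocaine challenge after a history of repeated cocaine was read from 18 of the 75 libraries of the series. These are the libraries of the D1 line whose labels give repeated cocaine, 10 of them with a cocaine challenge (CC) and 8 with a saline challenge (CS). The study measured RNA from sorted nuclei of the nucleus accumbens, a region of the ventral striatum, in mice that differed in receptor line, in repeated injections and in challenge. The question of the comparison is how a further dose of cocaine changes the nuclear RNA of D1 neurons that have already met the drug. The D1-line libraries came from male mice that carried 2 transgenes, LSL-eGFP::L10a, which makes a green fluorescent L10a fusion protein once Cre has acted, and D1-Cre, which drives Cre from the D1 dopamine receptor gene, so that the tag marks cells with D1-Cre activity at any time in their history. The D2-line libraries that are compared with them at the end came from male mice with LSL-eGFP::L10a and D2-Cre, which drives Cre from the D2 dopamine receptor gene. CC and CS mice both received cocaine at 20 mg/kg into the peritoneum on each of 10 days and then spent 30 days in the home cage. CC mice then received cocaine and CS mice saline, and tissue was taken 1 h later. Age is not in the labels, and neither is whether each library came from its own mouse or from pooled mice, so that p-values measure the spread between these libraries, which may in part be technical.

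D1 medium spiny neurons are the GABA-releasing projection neurons of the direct pathway. Dopamine acts on their D1 receptor through a stimulatory G protein and adenylyl cyclase, and protein kinase A, DARPP-32 and the ERK branch of the MAP kinases carry the signal to the nucleus. There, CREB and serum response factor switch on immediate early genes within minutes, among them members of the Fos, Jun, Egr and Nr4a families. Cocaine blocks the dopamine transporter and so raises extracellular dopamine, and repeated cocaine is known for the build-up of FosB products in these cells and for altered induction of other immediate early genes.

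The 18 libraries held between 4146700 and 26695612 counts, and total counts did not differ detectably between the groups (two-sided exact permutation test of the difference in means, p = 0.836). Several libraries stood apart. A background share was computed as the share of a library's counts that an even read density at the level of olfactory and vomeronasal receptor genes, which are silent in brain, would account for. It ran from 4.04% in CC library 3 (CC3) through a median of 55.2% to 64.8% in CC, and from 10.2% in CS3 through a median of 63.3% to 70.7% in CS (exact p = 0.271). CC1 at 16.5% and CC7 at 30.3% were also low. The share of counts in genes spanning over 100 kb was 34.1% to 54.9% in CC (median 50.6%) and 51.1% to 60.1% in CS (median 53.3%; exact p = 0.0192, adjusted over 6 library measures 0.0384), and CC3 and CC1 held the 2 lowest values. Mitochondrial genome genes took 0.0611% to 0.446% of counts in CC (median 0.124%) and 0.0231% to 0.116% in CS (median 0.0677%; exact p = 0.0142, adjusted 0.0384), with CC1 and CC3 highest. The D1 label did not hold evenly: Drd2 exceeded Drd1 in CPM (counts per 1000000 of the library's total) in 4 of 10 CC and 4 of 8 CS libraries. The log2 ratio of Drd1 to Drd2 lay on the D2 side of the midpoint between the lines in CC4, CC9 and CS4. A second measure was the log2 ratio of the read density in 4 genes beside Drd1 to that in Ankk1 and Ttc12, which lie beside Drd2. It was below 0 in CC4 (-1.70), CC9 (-1.89), CC10 (-0.99) and CS4 (-0.44) and above 0 in the other 14 libraries, and those 4 are called D2-side libraries from here on. By a fixed quality rule on depth, detected genes, the Drd1 to Drd2 ratio and correlation with the rest of the line, 3 CC libraries (3, 4 and 9) and 2 CS libraries (4 and 7) failed, and no 2 of the 18 libraries held identical counts.

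**Figure D1:**
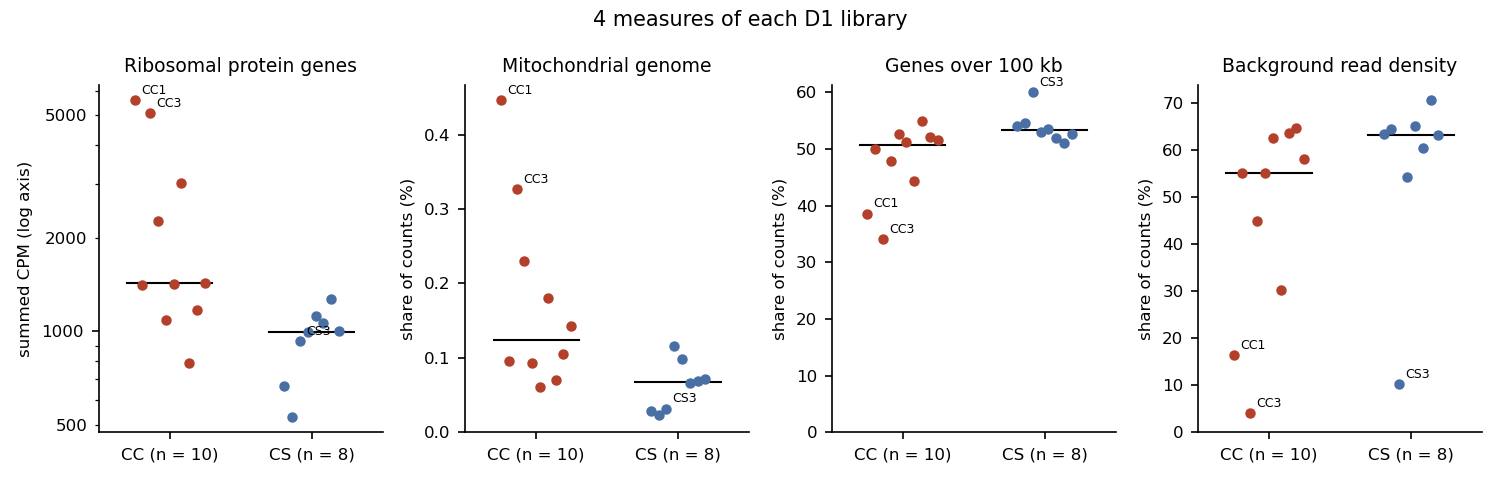
Summed CPM of cytosolic ribosomal protein genes (log axis) and the shares of counts (%) in mitochondrial genome genes, in genes over 100 kb and at background read density, with a point for each of 10 CC and 8 CS libraries and a line at the group median. CC1 and CC3 have the highest ribosomal protein levels and mitochondrial shares and the lowest shares in genes over 100 kb, and CS3 lies apart from the other CS libraries in background share (10.2%).

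After the cocaine challenge, 3123 genes were higher and 11 were lower among 37721 tested, which is 8.28% and 0.0292% of them (edgeR quasi-likelihood test on all 37 D1 libraries, Benjamini-Hochberg adjusted p under 0.05). The lowest adjusted p was 0.017, and 6894 genes had an unadjusted p under 0.05. The median log2 change of the genes called higher was 1.56, with a range of 0.70 to 3.21, and that of all genes tested was -0.09. The count depended on the fit: no gene was called with total count scaling (4836 with an unadjusted p under 0.05), upper quartile scaling (5237), only the CC and CS libraries (7441), the background share as a covariate (3470) or the failing libraries left out (4131), while RLE scaling gave 674 calls and DESeq2 2537. TMM scaling factors were 0.61 in CC1 and 0.56 in CC3, the lowest of the 18 libraries. Short genes were called more often: of protein-coding genes spanning under 2 kb 25.8% were called higher, of those of 5 to 10 kb 17.2%, of those of 20 to 50 kb 8.41%, and of those over 100 kb 0.44%. Protein-coding genes made up 80.5% of the genes called higher and 55.5% of those tested. Of 20928 protein-coding genes tested 2515 were called higher, a larger share than the 8.28% of all genes that is set beside the lists below.

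CC1 and CC3 carried much of the size of these rises. They held the 2 highest CPM of all 18 libraries in 2953 of the 3123 genes called higher (94.6%), against 18.2% of all genes tested. Without CC1 no gene was called (5265 with an unadjusted p under 0.05), without CC3 none (4385), and without both none (1744), by the same edgeR test. Over the 3104 genes called higher that could still be tested without CC1 and CC3, the median log2 change was 0.72 against -0.01 for all genes. These genes were chosen with the same remaining libraries, so that the sign of their change in a subset is no independent evidence of a rise. In the 7 CC and 7 CS libraries with a background share of 40% or more, no gene was called (978 with an unadjusted p under 0.05) and the median over the same genes was 0.63. In the 4 CC and 6 CS libraries left when the D2-side libraries were also taken out, it was 0.45, with no call (83 with an unadjusted p under 0.05). The D1 libraries with repeated saline stayed in both fits at any background share, so that the spread was estimated partly from them. When the log2 summed ribosomal protein level was added to the fit as a covariate, 2 genes were called, both lower (917 with an unadjusted p under 0.05). Library measures still differed between the groups without CC1 and CC3. CC minus CS was 0.665 for the log2 ribosomal level (unadjusted exact permutation p = 0.0199). It was 0.0593 percentage points for the mitochondrial share (p = 0.0214) and -3.3 for the share in genes over 100 kb (p = 0.0354). The part of library background, mitochondrial share or gene length in the calls was not tested beyond these values.

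**Figure D2:**
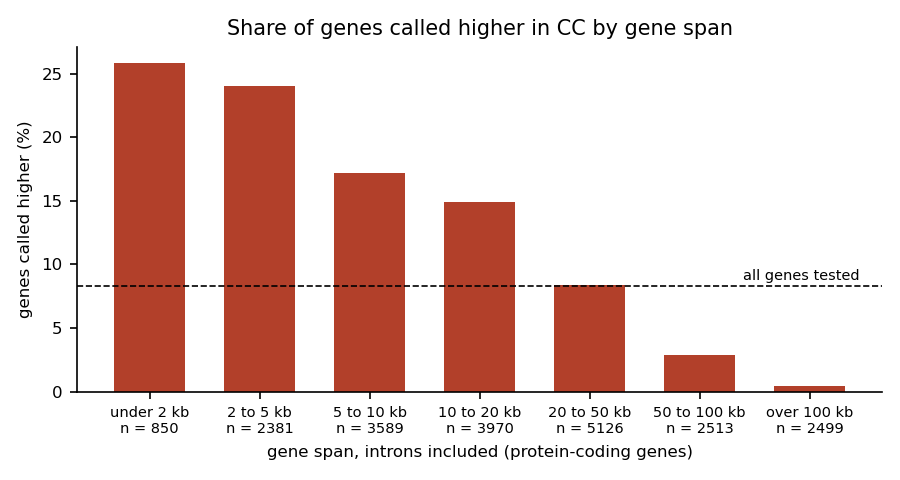
Share of protein-coding genes called higher in CC (%, bars) by gene span, with the number of genes tested under each bar and the share over all genes tested as a dashed line. The share falls from 25.8% of genes under 2 kb to 0.44% of genes over 100 kb.

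**Figure D3:**
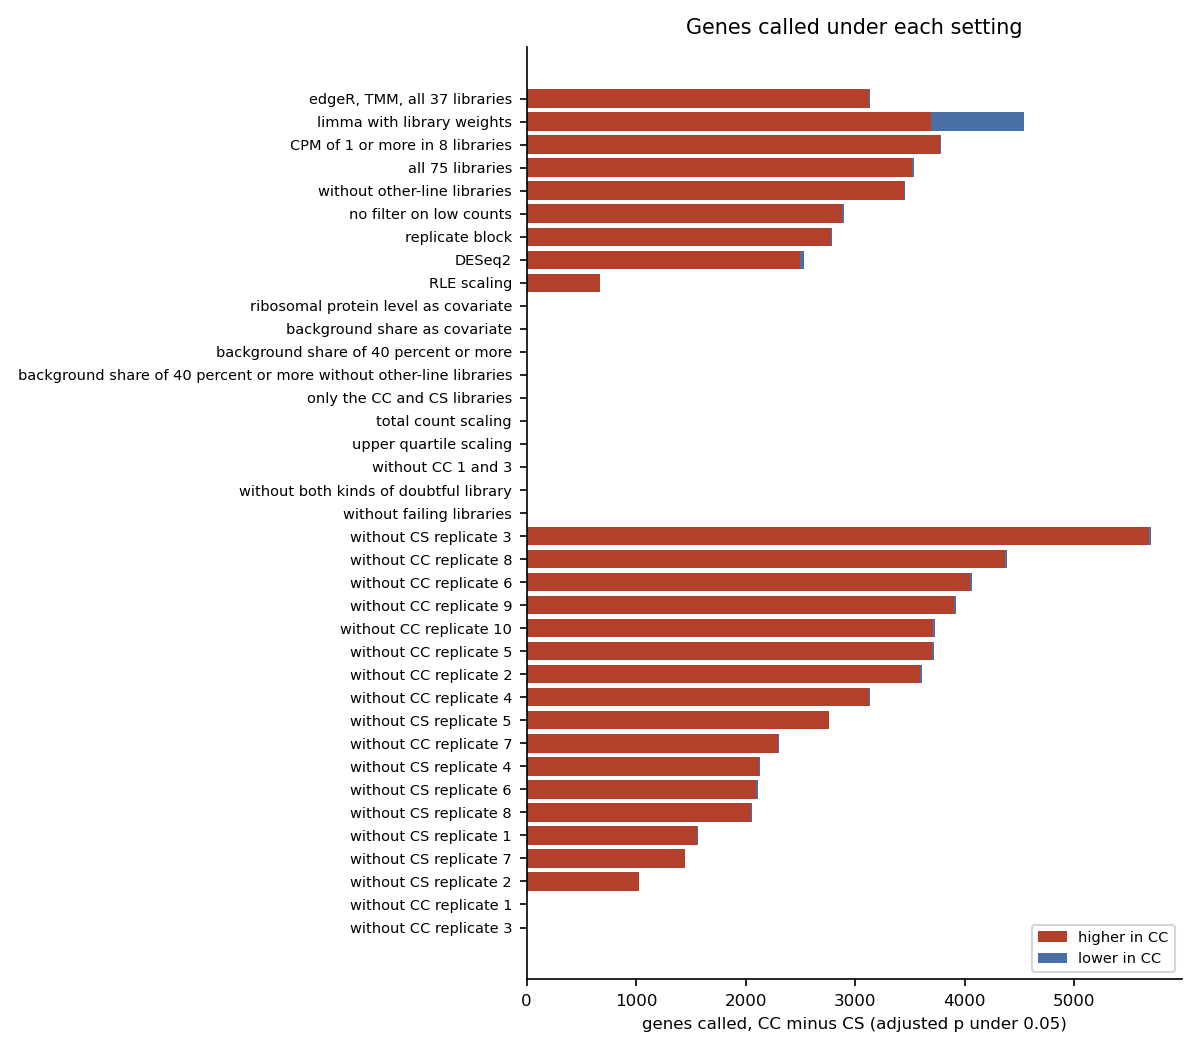
Number of genes called (horizontal axis) with an adjusted p under 0.05 in the comparison of CC with CS, under the main setting, each other setting and with each library left out in turn. Counts run from 0, among others without CC1 or without CC3, to 5700 without CS3, and nearly all calls in the main setting are higher in CC (3123 of 3134).

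Rapid immediate early genes were among the genes called higher. Of 23 tested, 9 rose and none fell, 39.1% against 8.28% of all genes tested, and the median log2 change was 0.93 against -0.09. The 9 were Fosb, Jun, Junb and Jund, whose products pair in the AP-1 transcription factor, the zinc finger factors Egr1, Egr3 and Egr4, the nuclear receptor gene Nr4a1, and Ier5. The median of the list was 0.21 without CC1 and CC3, where none of its genes was called. The 250 bases before the RefSeq start (GRCm38.p6, the build of the deposited counts) of Fosb, Junb, Nr4a1 and Plk2 are shown as examples of genes called higher. The cyclic AMP response element (CRE), to which CREB binds, is the textbook link from dopamine to such genes. Each window shown holds the CRE or its half-site, and no window without it is shown. Sequences run 5′ to 3′ on the strand of the gene, and capitals mark each TGACG or CGTCA, the half-site of the CRE, and the full element TGACGTCA.
Fosb, chr7:19310046-19310295, minus strand: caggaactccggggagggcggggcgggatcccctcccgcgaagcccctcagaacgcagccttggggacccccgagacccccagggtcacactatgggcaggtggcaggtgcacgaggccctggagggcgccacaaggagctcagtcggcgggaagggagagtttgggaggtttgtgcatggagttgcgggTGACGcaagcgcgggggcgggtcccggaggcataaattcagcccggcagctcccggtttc
Junb, chr8:84978749-84978998, minus strand: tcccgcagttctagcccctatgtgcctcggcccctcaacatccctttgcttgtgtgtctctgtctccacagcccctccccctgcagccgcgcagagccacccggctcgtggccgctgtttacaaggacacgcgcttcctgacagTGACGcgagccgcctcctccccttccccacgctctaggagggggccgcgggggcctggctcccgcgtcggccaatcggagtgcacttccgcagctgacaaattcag
Nr4a1, chr15:101266596-101266845, plus strand: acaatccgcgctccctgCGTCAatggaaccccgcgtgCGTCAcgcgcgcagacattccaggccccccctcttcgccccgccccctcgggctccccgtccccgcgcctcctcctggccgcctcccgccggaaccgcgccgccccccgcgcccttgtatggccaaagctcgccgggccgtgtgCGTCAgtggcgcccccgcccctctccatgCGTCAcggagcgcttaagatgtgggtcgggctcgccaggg
Plk2, chr13:110394794-110395043, plus strand: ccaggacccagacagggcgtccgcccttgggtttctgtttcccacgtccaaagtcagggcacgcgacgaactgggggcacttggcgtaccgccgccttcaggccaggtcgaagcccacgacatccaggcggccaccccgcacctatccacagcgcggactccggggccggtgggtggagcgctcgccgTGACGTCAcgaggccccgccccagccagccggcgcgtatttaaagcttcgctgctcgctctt
The half-site occurred once in the Fosb window, 60 bases before the start, once in the Junb window, 106 bases before, and 4 times in the Nr4a1 window. The Plk2 window held the full element, which contains the half-site on both strands. The half-site was searched on both strands and was present in 17.8% of all 32851 RefSeq promoter windows of this length, in 19.9% of the 24085 windows of genes tested here and in 31.6% of the 2436 windows of genes called higher. RefSeq windows were found for 17 of the 23 rapid immediate early genes, and 16 of their 23 windows held it (69.6%). Of the 9 rapid genes called higher 7 had a window, and 4 of these 7 windows held it. The full element was in 1.55% of all windows, in 1.86% of those of genes tested and in 3.28% of those of genes called higher. For the CArG box of serum response factor these shares were 1.47%, 1.34% and 0.944%. Of the 23 windows of the rapid list 2 held the full element and 4 the CArG box. Neither was in those 7 windows, which says little at such low shares. A match describes letters in this window and says nothing of binding.

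Fosb, the AP-1 subunit whose products persist after repeated cocaine, had 5.80 to 34.2 CPM in CC (median 9.38) and 3.59 to 9.05 CPM in CS (median 5.70). All 10 CC libraries lay above the CS median and 5 lay above every CS library, with CC3 and CC1 highest. The log2 change was 1.70 ± 0.44 (SE; edgeR adjusted p = 0.0173), and 0.68 ± 0.31 without CC1 and CC3 (adjusted p = 1.0). Junb, an AP-1 partner of the Fos proteins, had 8.82 to 86.7 CPM in CC (median 18.7) and 3.56 to 14.7 CPM in CS (median 8.47). Again all 10 CC libraries were above the CS median, 6 of them above every CS library. Its log2 change was 2.32 ± 0.63 (edgeR adjusted p = 0.0203), and 1.00 ± 0.51 without CC1 and CC3.

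Jund, another AP-1 partner with a steadier basal level, had 4.35 to 56.4 CPM in CC (median 11.3) and 2.32 to 6.59 CPM in CS (median 5.67), and 9 of 10 CC libraries exceeded every CS library. It rose by 2.55 ± 0.63 on the log2 scale (edgeR adjusted p = 0.017). Egr1 had 20.8 to 206 CPM in CC (median 59.7) and 13.0 to 38.5 CPM in CS (median 24.4). CC6 and CC8 lay below the CS median, while 7 CC libraries exceeded every CS library. The log2 change of Egr1 was 2.11 ± 0.55 (edgeR adjusted p = 0.0179), and 0.99 ± 0.56 in the 4 CC and 6 CS libraries with high background share that were not D2-side.

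Nr4a1 had 24.7 to 107 CPM in CC (median 40.3) and 18.6 to 36.8 CPM in CS (median 26.9), with 6 CC libraries above every CS library. It rose by 1.20 ± 0.39 on the log2 scale (edgeR adjusted p = 0.0442), the lowest change of the 9. Jun (2.09 ± 0.51, adjusted p = 0.017) and Ier5 (1.90 ± 0.51, adjusted p = 0.0197) rose with 7 and 8 CC libraries above every CS library.

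Other well-known members of the list did not pass the test. Fos had 4.04 to 16.6 CPM in CC (median 5.16) and 3.11 to 6.27 CPM in CS (median 5.86). CC3 and CC1 stood out at 16.6 and 13.4 CPM, and 7 of the 10 CC libraries lay at or below the CS median. Its log2 change was 0.90 ± 0.46 (edgeR adjusted p = 0.307), and -0.03 ± 0.37 without CC1 and CC3. Npas4, a neuron-specific factor that follows calcium entry, had a log2 change of 0.50 ± 0.35 (edgeR adjusted p = 0.558), with medians of 14.7 CPM in CC and 14.5 CPM in CS. Nr4a3 had medians of 45.2 and 45.1 CPM and a change of 0.59 ± 0.37 (edgeR adjusted p = 0.477). Arc, whose product trims surface AMPA receptors, had 8.30 to 51.2 CPM in CC (median 20.4) and 6.52 to 18.6 CPM in CS (median 10.2). For Arc 7 CC libraries lay above every CS library, with a change of 1.46 ± 0.50 (edgeR adjusted p = 0.0606).

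**Figure D4:**
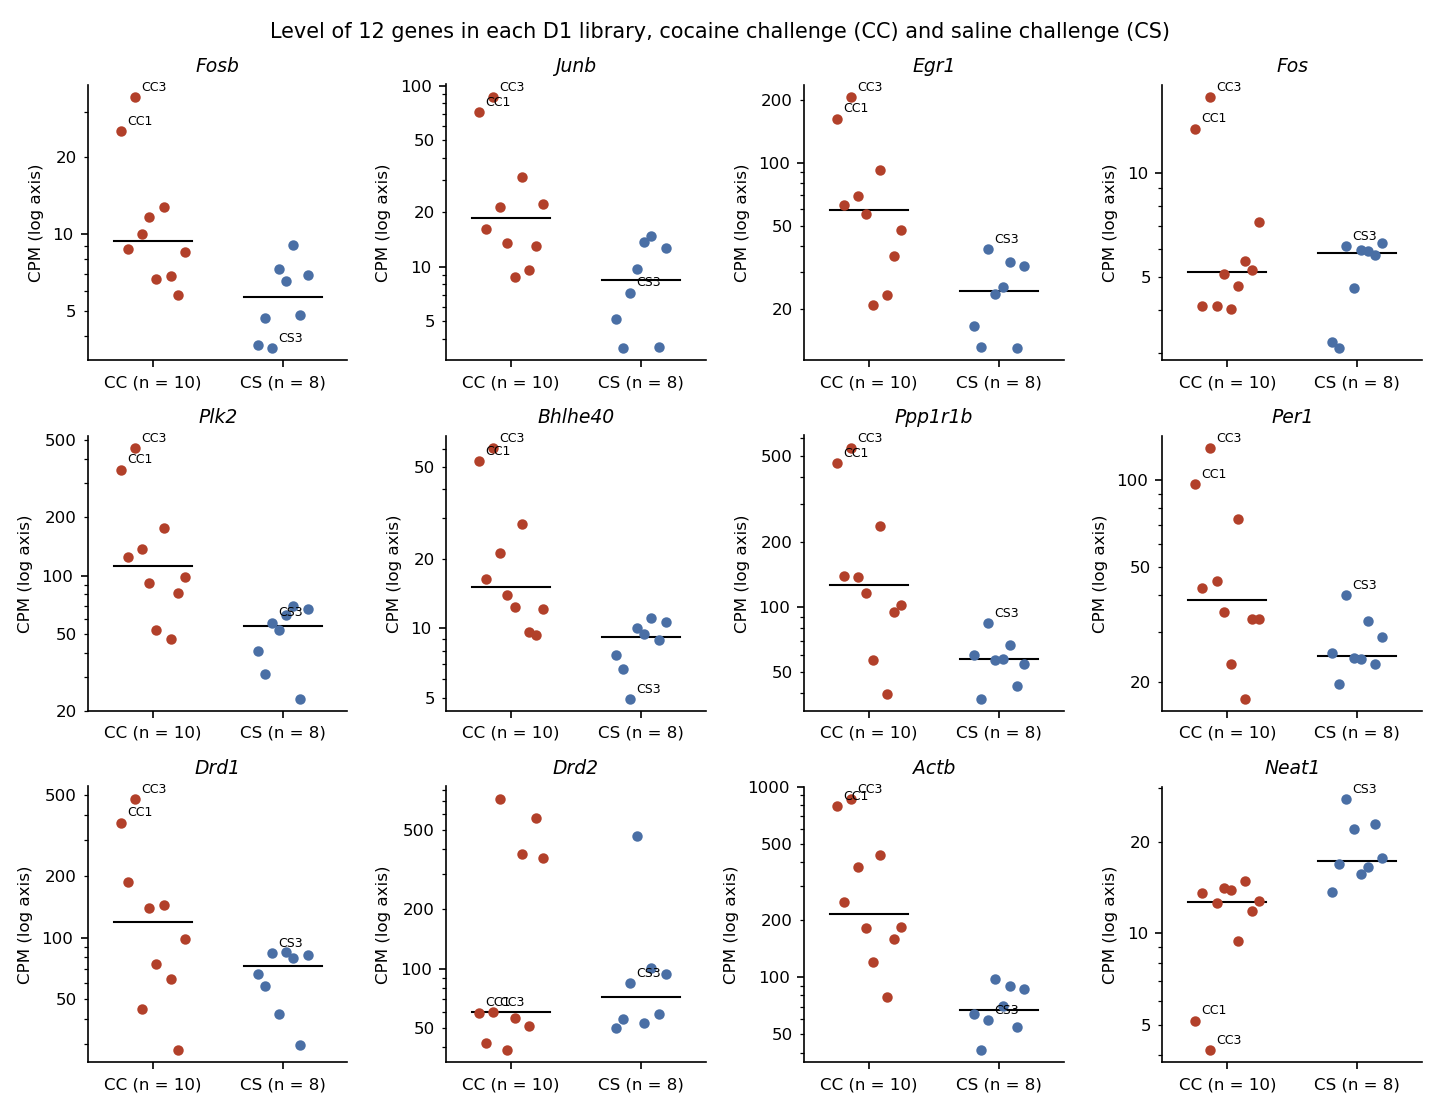
CPM (log axis) of 12 genes in each of 10 CC and 8 CS libraries, with a line at the group median; CC1, CC3 and CS3 are marked. For Fosb, Junb, Egr1, Plk2, Bhlhe40, Ppp1r1b, Per1, Drd1 and Actb, CC1 and CC3 are the 2 highest of all libraries; Fos overlaps between the groups apart from CC1, CC3 and CC10; the high Drd2 libraries reach 718 CPM in CC and 465 CPM in CS; and Neat1 is lowest in CC3 and CC1.

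Genes of the slower activity programme have products that act at synapses and in the secretory pathway. Of 23 tested, 10 rose and none fell (43.5%, median log2 change 0.87, and 0.14 without CC1 and CC3). The kinase gene Plk2, which takes part in homeostatic weakening of synapses, had 47.1 to 455 CPM in CC (median 112) and 23.2 to 69.6 CPM in CS (median 54.7). CC6 and CC8 fell within the CS range and the other 8 CC libraries lay above it. The log2 change was 2.19 ± 0.53 (edgeR adjusted p = 0.017), and 1.02 ± 0.41 without CC1 and CC3 (adjusted p = 0.916). Bhlhe40, a transcriptional repressor that is also a clock component, had 9.38 to 60.4 CPM in CC (median 15.1) and 4.94 to 11 CPM in CS (median 9.16). All 10 CC libraries exceeded the CS median and 8 exceeded every CS library, and the log2 change was 2.02 ± 0.46 (edgeR adjusted p = 0.017).

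Rgs2 and Rgs4, which speed the shut-off of G protein signals, rose by 2.20 ± 0.54 and 2.27 ± 0.56 on the log2 scale (edgeR adjusted p = 0.017 for each), each with 8 CC libraries above every CS library. Scg2, the secretogranin of dense-core vesicles, had 127 to 977 CPM in CC (median 279) and 33.3 to 232 CPM in CS (median 105). It overlapped more, with 6 CC libraries above every CS library, and changed by 2.22 ± 0.65 (edgeR adjusted p = 0.0265). Vgf, Gadd45b, Gadd45g, Nptx2 and Per1 completed the list of rises, from 1.38 (Per1) to 1.75 (Gadd45b). Homer1, which spans over 100 kb and makes a short activity-induced isoform, had 139.8 to 386 CPM in CC (median 194) and 90.2 to 480.3 CPM in CS (median 202). The highest library was CS3, the groups overlapped throughout, and the change was 0.14 ± 0.39 (edgeR adjusted p = 0.893).

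In the MAP kinase cascade, 7 of 20 pathway genes rose and none fell (35%, median log2 change 0.99, and 0.21 without CC1 and CC3). Mapk3, which encodes ERK1, had 8.28 to 64.5 CPM in CC (median 16.5) and 5.09 to 10.3 CPM in CS (median 8.50), and 9 of 10 CC libraries exceeded every CS library. It rose by 2.22 ± 0.54 on the log2 scale (edgeR adjusted p = 0.017). Hras, the small GTPase at the head of the cascade, rose by 2.45 ± 0.62 (adjusted p = 0.0171), and Map2k1, which encodes the ERK kinase MEK1, by 1.29 ± 0.36 (adjusted p = 0.0218). Ptpn5, the striatal phosphatase that switches ERK off, and Rasgrp1, a striatal activator of Ras, rose by 1.37 ± 0.40 and 1.30 ± 0.39 (edgeR adjusted p = 0.028 and 0.0318). Among 13 feedback regulators, many of which ERK activity itself induces, 2 rose (15.4%, against 8.28% of all genes). They were Dusp8 by 1.26 ± 0.40 and Spry2 by 1.41 ± 0.46 (edgeR adjusted p = 0.0421 and 0.0489). The median of the list was 0.60, and 0.03 without CC1 and CC3. Dusp6, the cytoplasmic ERK phosphatase, had medians of 7.97 CPM in CC and 5.79 CPM in CS and a change of 1.15 ± 0.44 that did not pass (edgeR adjusted p = 0.102).

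Of 25 genes of dopamine receptor and cyclic AMP signalling, 8 rose and none fell (32.0%, median 0.68, and 0.11 without CC1 and CC3). Ppp1r1b, which encodes DARPP-32, the phosphatase inhibitor through which protein kinase A amplifies its signal in these neurons, had 39.9 to 542 CPM in CC (median 127) and 37.7 to 84.2 CPM in CS (median 57.4). CC6 and CC8 lay among the CS libraries and the other 8 CC libraries lay above them all. The log2 change was 2.23 ± 0.55 (edgeR adjusted p = 0.017), and 0.99 ± 0.43 without CC1 and CC3 (adjusted p = 0.959). Prkaca and Prkacb, the catalytic subunits of protein kinase A, rose by 1.40 ± 0.40 and 1.44 ± 0.38 (edgeR adjusted p = 0.025 and 0.0179). For Prkacb 9 of 10 CC libraries exceeded every CS library.

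Of the phosphodiesterases, which break cyclic AMP down, 3 are given. Pde1b, of 27019 bases, had 88.2 to 847 CPM in CC (median 267) and 75 to 313 CPM in CS (median 122). It rose by 1.59 ± 0.48 (edgeR adjusted p = 0.032). Pde10a and Pde4b, each spanning over 100 kb, did not pass: Pde10a had medians of 868 CPM in CC and 697 CPM in CS and a log2 change of 0.10 ± 0.40 (edgeR adjusted p = 0.928), and Pde4b had medians of 622 and 616 CPM and a change of -0.14 ± 0.31 (edgeR adjusted p = 0.865). For both genes the highest library of all 18 was CS3, at 2650.2 CPM for Pde10a and 1499 CPM for Pde4b. Of 13 genes of the CREB family and its coactivators 2 rose (15.4%, against 8.28% of all genes). They were Crebzf and Atf4, the latter by 1.76 ± 0.49 (edgeR adjusted p = 0.0215). The median of the list was 0.31, and 0.02 without CC1 and CC3.

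Of 21 core clock genes 6 rose and none fell (28.6%, median log2 change 0.58, and 0.16 without CC1 and CC3). Per1, a clock repressor that also answers to CREB and to glucocorticoids, had 17.5 to 129 CPM in CC (median 38.7) and 19.8 to 40.1 CPM in CS (median 24.8). CC8 was the lowest of all 18 libraries, 5 CC libraries exceeded every CS library, and the log2 change was 1.38 ± 0.40 (edgeR adjusted p = 0.028). The output genes Dbp and Nr1d1, the latter encoding the repressor REV-ERB alpha, rose by 2.02 ± 0.51 and 2.07 ± 0.48 (edgeR adjusted p = 0.017 for each), and Ciart by 1.36 ± 0.38 (adjusted p = 0.0237). For Nr1d1 9 CC libraries exceeded every CS library.

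Among 20 glucocorticoid receptors and targets 5 rose (25.0%, median 0.23, and 0.05 without CC1 and CC3). Ddit4, an inhibitor of the growth kinase mTOR complex 1, had 2.09 to 11.4 CPM in CC (median 2.68) and 0.749 to 1.97 CPM in CS (median 1.76). It was one of the few genes whose groups did not overlap: every CC library lay above every CS library. Its log2 change was 2.06 ± 0.50 (edgeR adjusted p = 0.017), and 0.98 ± 0.39 without CC1 and CC3 (adjusted p = 0.915). Mt1, a metallothionein, rose by 2.45 ± 0.62 (adjusted p = 0.0171) and Nfkbia, an inhibitor of NF-kappaB, by 1.38 ± 0.40 (adjusted p = 0.0282).

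Markers of both medium spiny neuron types were among the genes called higher in CC. D2-side libraries were 3 of the 10 CC and 1 of the 8 CS libraries, and their part was not tested beyond the values given here. In sorted nuclei that are pooled before sequencing, more nuclei of a type and more RNA per nucleus cannot be told apart. Of 9 D1 neuron markers 5 rose (55.6%, median log2 change 1.81, and 0.54 without CC1 and CC3). Drd1 itself had 28.2 to 478 CPM in CC (median 119) and 29.7 to 84.7 CPM in CS (median 73.1). CC9 was below every CS library, 6 CC libraries were above them all, and the change was 1.81 ± 0.57 (edgeR adjusted p = 0.0387). Pdyn, the dynorphin precursor, had 28.8 to 477 CPM in CC (median 106) and 27.7 to 85.9 CPM in CS (median 48.2). It rose by 2.14 ± 0.59 (edgeR adjusted p = 0.021), with 6 CC libraries above every CS library, and by 1.09 ± 0.58 in the 4 CC and 6 CS libraries with high background share that were not D2-side (adjusted p = 1.0). Tac1, the substance P precursor, rose by 1.93 ± 0.59 (edgeR adjusted p = 0.0353) and Chrm4, a muscarinic receptor enriched in D1 neurons, by 2.13 ± 0.60 (adjusted p = 0.0238).

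Of 7 D2 neuron markers tested 3 rose (42.9%, median 1.35, and 1.27 without CC1 and CC3, where none was called). Penk, the enkephalin precursor of D2 neurons, had 124 to 1328 CPM in CC (median 768) and 39.8 to 439 CPM in CS (median 143). The highest library was CC4 and the highest CS library was CS4, both D2-side libraries. CC7, CC3 and CC1, which were not D2-side, also lay above every CS library, at 1189, 858 and 848 CPM. Penk rose by 2.09 ± 0.64 (edgeR adjusted p = 0.0342). The cut on background share leaves out CC1, CC3, CC7 and CS3. Among the 4 CC and 6 CS libraries with high background share that were not D2-side, the change of Penk was -0.28 ± 0.73. Adora2a, the adenosine receptor that opposes dopamine in D2 neurons, rose by 1.53 ± 0.42 (adjusted p = 0.0209) and was at -0.39 in those libraries. Drd2 had 38.8 to 718 CPM in CC (median 60.0) and 50 to 465 CPM in CS (median 71.4). Its groups overlapped, with a change of 1.08 ± 0.51 that did not pass (edgeR adjusted p = 0.23) and of -0.48 in those libraries. The summed level of the D2 markers ran from 553 to 2771 CPM in CC and from 402 to 1471 CPM in CS. It was highest in CC4 and CS4, and CC7 had 2116 CPM. The median of the list was -0.28 without the D2-side libraries at high background share.

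Of 13 markers shared by medium spiny neurons 3 rose (23.1%, median 0.52, and -0.01 without CC1 and CC3), among them Ppp1r1b and Slc32a1, the vesicular transporter for GABA, by 1.93 ± 0.58 (edgeR adjusted p = 0.0321). Of 13 striatal interneuron markers 1 rose (7.69%, no more than the 8.28% of all genes), Sst, the somatostatin precursor, with 10.8 to 127 CPM in CC (median 32.9) and 7.23 to 44.0 CPM in CS (median 15.6). Its change was 2.05 ± 0.63 (edgeR adjusted p = 0.0342), and CS4 was the highest CS library.

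Among the lists of glutamate receptors, GABA receptors, ion channels and postsynaptic scaffolds the share called higher ran from 0% to 17.6%, against 8.28% of all genes. Of 11 genes of opioid and tachykinin peptides and receptors 3 rose (27.3%, median log2 change 0.17, and 0.05 without CC1 and CC3). Of 18 ionotropic glutamate receptor genes 1 rose (5.56%, median log2 change 0.06), Grin1, the obligatory NMDA receptor subunit, by 1.27 ± 0.40 (edgeR adjusted p = 0.0391). None of 8 metabotropic glutamate receptor genes passed (median -0.14). Of 17 GABA receptor genes 3 rose (17.6%, median 0.30), among them Gabrd, the extrasynaptic delta subunit, by 1.62 ± 0.42 (edgeR adjusted p = 0.0176). Of 17 postsynaptic scaffold genes 2 rose (11.8%, median 0.24): Dlg4, which encodes PSD-95, by 1.37 ± 0.44 and Camk2b by 1.32 ± 0.39 (edgeR adjusted p = 0.0427 and 0.0271).

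Of 93 potassium channel genes 10 rose (10.8%, median -0.07), a share close to the 8.28% of all genes. Kcna5, of 2862 bases, had 7.87 to 63.3 CPM in CC (median 16.1) and 2.17 to 10.2 CPM in CS (median 6.85). All 10 CC libraries exceeded the CS median, and it rose by 2.37 ± 0.53 (edgeR adjusted p = 0.017). Of 40 voltage-gated sodium and calcium channel genes 5 rose (12.5%, median 0.08). They included the accessory subunits Scn2b and Scn4b, by 1.96 ± 0.50 and 1.80 ± 0.49 (edgeR adjusted p = 0.0171 and 0.0209). Of 35 cadherins and protocadherins 2 rose (5.71%, median -0.11). Of 44 enzymes of DNA methylation and histone modification 4 rose (9.09%, median 0.41), among them the acetyltransferase Kat2a by 1.58 ± 0.37 and the arginine methyltransferase Prmt1 by 1.67 ± 0.40 (edgeR adjusted p = 0.017 for each).

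The highest shares of rises were in genes for energy, translation and protein folding. Of 77 nuclear-encoded respiratory chain genes 62 rose (80.5%, median log2 change 1.69, and 0.78 without CC1 and CC3), of 86 cytosolic ribosomal protein genes 63 (73.3%, median 1.88, and 0.85), of 21 heat shock and chaperone genes 15 (71.4%, median 1.77, and 0.95), and of 13 mitochondrial genome genes 11 (84.6%, median 2.13, and 1.26). None of these genes fell. Summed over the list, ribosomal protein genes had 791 to 5584 CPM in CC (median 1429) and 530.5 to 1276 CPM in CS (median 999). CC1 and CC3 were highest and CC7 came next at 3012 CPM, while CC8 lay within the CS range (exact permutation test of the log2 sums, p = 0.00946, adjusted over 6 library measures 0.0384).

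Among single genes, Hsp90aa1, the inducible HSP90, had 110.2 to 944 CPM in CC (median 235) and 40.1 to 135 CPM in CS (median 97.0), and 9 of 10 CC libraries exceeded every CS library. It rose by 2.71 ± 0.59 (edgeR adjusted p = 0.017). Hspa8 and Hsp90ab1, constitutive chaperones, rose by 2.41 ± 0.55 and 2.61 ± 0.58. Ndufb10, of respiratory complex I, and Atp5a1, of the ATP synthase, rose by 2.67 ± 0.60 and 2.55 ± 0.57, the ribosomal genes Rpl15 and Rplp0 by 2.54 ± 0.60 and 2.40 ± 0.57 (edgeR adjusted p = 0.017 for all 6), and mt-Co1 by 2.28 ± 0.62 (adjusted p = 0.0201). RNA of the mitochondrial genome is made outside the nucleus.

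Actin genes were among the 12 conventional genes with the largest rises. Actb had 78.2 to 860.3 CPM in CC (median 215) and 41.4 to 97.8 CPM in CS (median 67.0), with 9 of 10 CC libraries above every CS library. It rose by 2.82 ± 0.61 (edgeR adjusted p = 0.017), and by 1.73 ± 0.51 without CC1 and CC3 (adjusted p = 0.915). Actg1 rose by 2.95 ± 0.66. The others of the 12 were the histone genes Hist1h4f, Hist1h3e and Hist1h3i, the retrotransposon-derived Rtl8b and Rtl8c, Mif, Apoe, the small GTPase gene Rhob, the ubiquilin gene Ubqln2 and Bex1, at log2 changes of 2.77 (Bex1) to 2.96 (Hist1h4f). Each of the 12 passed at an adjusted p of 0.017 to 0.0195 (edgeR).

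The CPM ranges of the groups did not overlap, with CC higher, for 18 of 37721 genes (0.0477%), of which 16 were called, and with CC lower for 5 (0.0133%), of which none was. The named ones, picked after their values were seen, include Atp6v1e1, a subunit of the proton pump of vesicles, with 40.8 to 178 CPM in CC and 25.3 to 40.7 CPM in CS. Isca1, an iron-sulfur cluster assembly gene, had 13.0 to 55.9 CPM in CC and 8.68 to 12.9 CPM in CS. Psmb1, a proteasome subunit, had 26.5 to 84.8 against 17.5 to 26.3 CPM, and Imp3 had 2.17 to 16.7 against 0.723 to 2.15 CPM. In each the lowest CC library, CC8, lay just above the highest CS library, and the changes were 1.72 ± 0.41, 1.71 ± 0.40, 1.33 ± 0.36 and 2.40 ± 0.57 on the log2 scale (edgeR adjusted p = 0.017, 0.017, 0.0206 and 0.017).

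Markers of cells that a D1 sort should leave out were measured beside these rises. Of 13 oligodendrocyte lineage markers 4 rose (30.8%, median 0.38, and 0.07 without CC1 and CC3). Cnp, an enzyme of myelin, had 14.9 to 90.6 CPM in CC (median 27.5) and 11.1 to 20.2 CPM in CS (median 16.7). It rose by 1.83 ± 0.39 (edgeR adjusted p = 0.017), highest in CC3 and CC1, and Olig1, a transcription factor of the lineage, rose by 2.41 ± 0.58 (0.017). Summed over the list, these markers had 235 to 504 CPM in CC (median 277) and 141 to 284 CPM in CS (median 249), with CC3 and CC1 highest. Of 12 astrocyte markers 1 rose, Atp1b2 (8.33%, near the 8.28% of all genes), and their sum was 299 to 388 CPM in CC and 148 to 413 CPM in CS.

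None of 10 microglia, 12 vascular, 8 choroid plexus and ependymal or 8 cortical glutamatergic neuron markers passed, and the medians of these lists were 0.14, -0.24, -0.25 and -0.33. Vascular markers summed to 57.7 CPM in CC3 and 145 CPM in CC1 against a CC median of 431 CPM and 168 to 644 CPM in CS. None of the glial and neuronal markers was at 0 in all 18 libraries, and their part in the rises was not tested. Of 1314 olfactory and vomeronasal receptor genes tested none was called, and their median was -0.18.

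**Figure D5:**
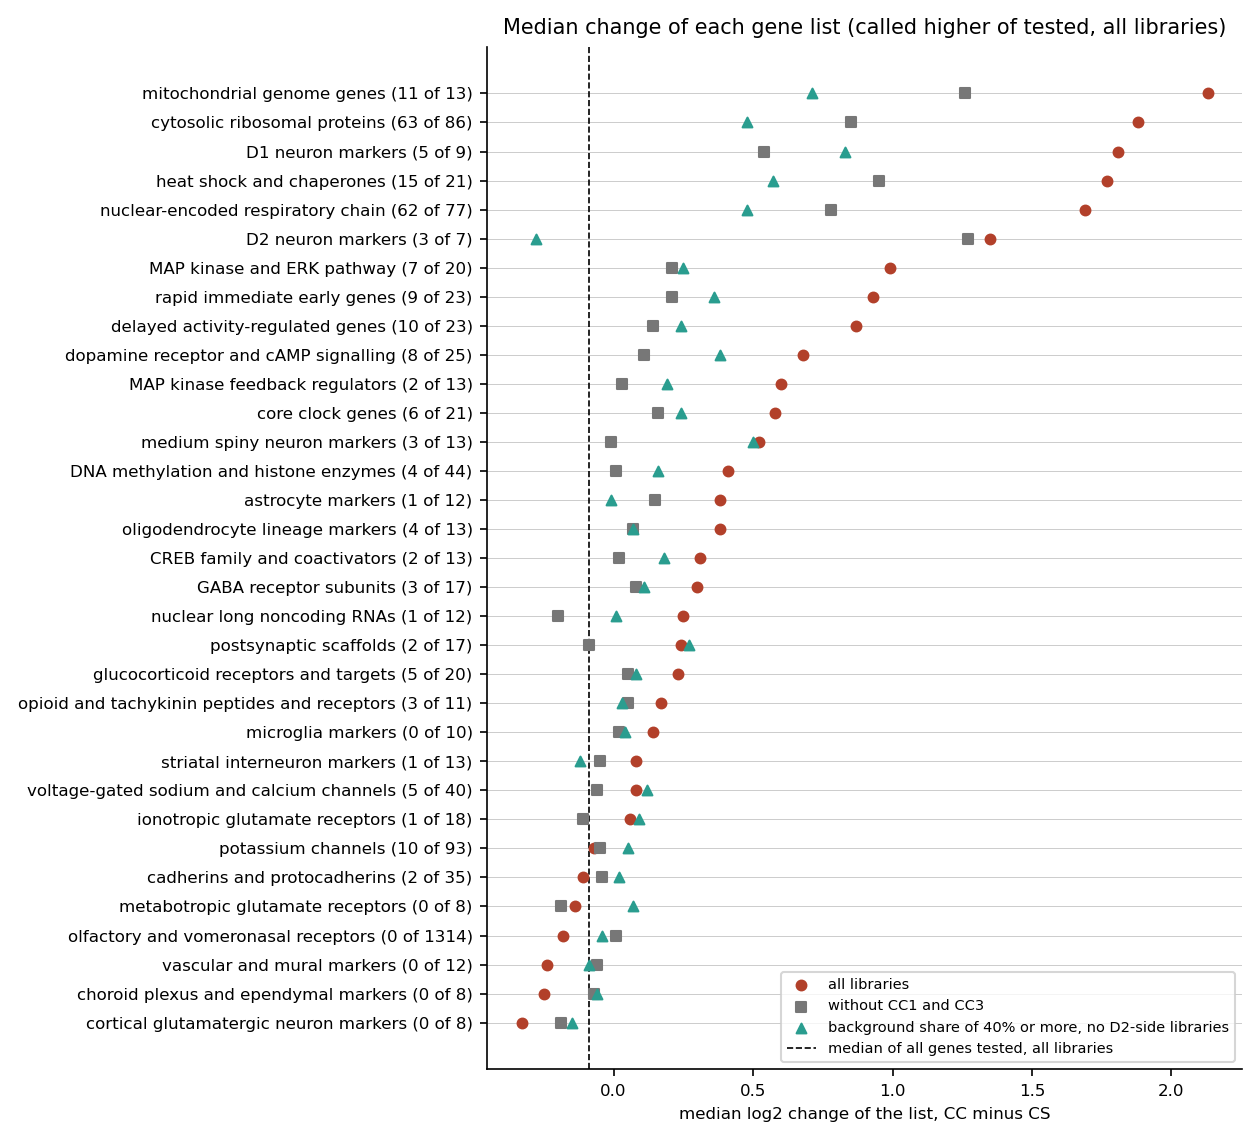
Median log2 change, CC minus CS, of each gene list in all libraries (circles), without CC1 and CC3 (squares) and in the 4 CC and 6 CS libraries with a background share of 40% or more that were not D2-side (triangles), with the number called higher of those tested beside each name. Mitochondrial, ribosomal, chaperone and respiratory lists lie at 1.69 to 2.13 with all libraries and at 0.78 to 1.26 without CC1 and CC3. D1 neuron markers lie at 1.81 and 0.54 in these sets and D2 neuron markers at 1.35 and 1.27. In the last set D2 neuron markers lie at -0.28.

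Few genes fell. Of the 11 called lower, 2 had a conventional symbol and the level needed to be named. Neat1, the long noncoding RNA that scaffolds paraspeckles, had 4.15 to 14.9 CPM in CC (median 12.6) and 13.7 to 27.6 CPM in CS (median 17.3). CC3 and CC1 were lowest, at 4.15 and 5.17 CPM, and 7 of 10 CC libraries lay below every CS library. It fell by 0.73 on the log2 scale (SE 0.23, edgeR adjusted p = 0.0369), with a change of -0.63 ± 0.23 without CC1 and CC3 (adjusted p = 0.915). Clec2e, a lectin-like receptor gene, had 0.455 to 5.90 CPM in CC (median 4.63) and 4.27 to 43.6 CPM in CS (median 6.25), and CS3 stood alone at 43.6 CPM. Its change was -1.71 ± 0.54 (edgeR adjusted p = 0.0398), -0.32 without CS3 (adjusted p = 0.649), and -0.10 ± 0.42 among libraries with a background share of 40% or more, which leaves out CS3, CC1, CC3 and CC7. The next falls by unadjusted p, which did not pass, were Mip, Vinac1, Procr, Slc22a12, Ccdc154, Hhex, Olfr156 and Tldc2, at -0.61 (Vinac1) to -0.92 (Hhex).

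The challenge was also given to D1-line mice with repeated saline, 9 with cocaine (SC) and 10 with saline (SS), and these 19 libraries share none with CC and CS. There 4277 genes were called, 3659 higher (9.7%) and 618 lower (1.64%), and 2981 without the failing libraries, which were SC1, SC5 and SC9. SC2, SC4 and SC9 had background shares of 8.01%, 5.65% and 5.96%, against 28.6% to 61.0% in SS, and 61.7% to 64.1% of their counts lay in genes over 100 kb, against 45.0% to 57.8% in SS. Olfactory and vomeronasal receptor genes had a median of -0.74 in SC minus SS, with 76 called lower. The part of these libraries in the SC minus SS values was not tested. Of the 3123 genes higher in CC, 1739 (55.7%) were above 0 in SC minus SS, against 46.4% of all genes tested. Called higher in both were 38 genes. They are 1.22% of the 3123, against 9.7% of all genes called higher in SC minus SS. Of the 3659 genes higher in SC they are 1.04%, against 8.28% of all genes called higher in CC minus CS. Per1 and Nr4a1 rose in both, by 1.48 and 1.36 without cocaine history (edgeR adjusted p = 0.011 and 0.0149). Homer1, Pde10a and Pde4b, which span over 100 kb and did not pass in CC minus CS, rose there by 1.49, 1.35 and 1.67 (edgeR adjusted p = 0.00913, 0.0208 and 0.00293). Fosb had 0.80 ± 0.41 there (adjusted p = 0.169), Ppp1r1b 0.27 and Actb -0.27.

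The difference between these responses was tested as an interaction, (CC minus CS) minus (SC minus SS). No gene passed (edgeR, 6936 with an unadjusted p under 0.05), whereas DESeq2 called 2975. The interaction was 0.90 ± 0.59 for Fosb (edgeR adjusted p = 0.428), 1.78 for Plk2 (0.145), -0.16 for Nr4a1 (0.904), -0.10 for Per1 (0.943), 3.10 for Actb (0.0527) and -1.81 for Pde4b (0.0527). Its median was 2.36 over ribosomal protein genes, 1.68 over chaperones and 0.43 over rapid immediate early genes, against 0.15 over all genes, and -1.03 over postsynaptic scaffolds.

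The same treatments in the D2 line, with 10 CC and 10 CS libraries, gave 91 genes lower (0.252%) and none higher (367 were higher at an unadjusted p under 0.05; edgeR; DESeq2 called 38, all lower). Of these libraries 2 CC and 5 CS failed the quality rule, 3 of them with 19825 to 26297 counts, and without the failing ones no gene was called (1230 with an unadjusted p under 0.05). Of the 3081 genes called higher in D1 nuclei that could be tested in D2 nuclei, 169 were above 0, and their median log2 change there was -0.48 against 0.02 for all genes, with the failing libraries in. The difference of the line responses was called for 3816 of 39250 genes, 3757 of them higher in the D1 line (9.57%) and 59 lower (0.15%). Actb differed by 4.44 (edgeR adjusted p = 0.000793), Egr1 by 3.18 (0.00367), Ppp1r1b by 3.13 (0.00289), Fosb by 2.25 (0.00975) and Nr4a1 by 1.72 (0.0408), while Drd2 (0.55, adjusted p = 0.739) and Neat1 (0.26, adjusted p = 0.81) did not pass. In D2 nuclei Fosb was at -0.54, Egr1 at -1.05 and Actb at -1.59, and none of the 3 passed there. With every failing library of both lines left out, no gene was called for this difference (5520 with an unadjusted p under 0.05).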

How the data were processed

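The raw counts deposited by the authors are whole numbers for 55401 gene identifiers in 75 libraries of nuclear RNA. Per the submitters' processing notes featureCounts, DESeq2 and mm10 were used, and the aligner and strand setting are not given in the sources used here, so that overlapping genes and near-identical copies are uncertain. The FPKM values deposited by the authors gave gene lengths only, which equal the GENCODE M21 span, introns included.

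Counts were tested with edgeR 4.0.16 (R 4.3.3; TMM, filterByExpr, quasi-likelihood, two-sided, Benjamini-Hochberg) over the 37 D1 libraries in 4 groups, or 38 D2 or all 75 libraries. Alternatives were limma 3.58.1, DESeq2 1.42.0, other scalings, filters, covariates and library sets. On simulated counts (37721 genes, dispersion 0.15) the test recovered 35 of 100 genes changed 2-fold and 100 of 100 changed 4-fold, with 5 false calls. These counts were drawn independently around a shared profile at a fixed spread, without library differences like those of CC1 and CC3. The simulated rates therefore do not carry over to the real libraries. Library measures were compared by two-sided exact permutation tests. CPM uses total counts.

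The members and lists were chosen with earlier results of these data known. Named genes were the 12 largest rises and falls called at an average log2 CPM of 1 or more (falls filled to 10 by p), members of each list that passed or were among its 4 with the smallest p, and the well-known response and marker genes given throughout. Without CC1 and CC3, background share of 40% or more and the ribosomal covariate were alternatives chosen after the data were seen, as were the total count, mitochondrial, long-gene and ribosomal library measures. Log2 changes are edgeR's, with SE from the test statistic.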

Additional observations from a re-analysis of the deposited data

Results flagged for a closer look

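In 174 checks of a gene or library measure within CC or CS, 14 found a single library far from the rest of its group. All 14 were in CS and 10 of them in CS3. The checks share libraries, so that 14 of 174 cannot be set against the 1 in 20 of independent checks. A check for a single library can also miss libraries that lie apart together, as CC1 and CC3 did for many genes. That no check found a CC library therefore says little about CC. CS3 was the highest CS library for Homer1 (480.3 CPM, next 219), Pde1b (313, next 139.7), Pde10a (2650.2, next 744), Pde4b (1499, next 693), Camk2b (342, next 222), Dlg4 (126, next 65.2) and Clec2e (43.6, next 7.72), and the lowest for Psmb1 (17.5, next 22.2). The same library had the lowest background share of CS (10.2%, next 54.4%) and the highest share of counts in genes over 100 kb (60.1%, next 54.6%). CS4 stood apart with the highest Drd2 (465 CPM, next 101) and Sst (44.0 CPM, next 24.3) and the lowest log2 ratio of Drd1 to Drd2 (-3.46, next -0.985). CS7, the shallowest library, had the lowest Prkacb (72.3 CPM, next 108).

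The response of the D1 line differed from that of the D2 line for 3816 genes by a test of the difference itself in edgeR. That count was 1961 with DESeq2, 1146 with RLE scaling and 0 once failing libraries were left out.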

How the results depend on the processing

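Of the comparison of CC with CS (3134 genes called), the count fell to 674 with RLE scaling, to 2 with the ribosomal protein level as a covariate, and to 0 with total count or upper quartile scaling, the background share as a covariate, only the CC and CS libraries, without the failing libraries, without both kinds of doubtful library (failing or D2-side), without CC1 and CC3, and in the libraries with a background share of 40% or more with or without the D2-side ones. Leaving out each library in turn gave 0 to 5700 calls, 11 of 18 within 1.5 times of the main count; the 0 came without CC1 and without CC3, and 1025 without CS2, 1449 without CS7, 1567 without CS1, 2062 without CS8 and 5700 without CS3 were the other counts outside. DESeq2 called 2537, limma with library weights 4545 (3696 higher, 849 lower), no filter 2902, and the stricter filter 3780. The cause was not tested. The median of all genes was -0.09 with TMM and -0.25 with RLE or total count scaling and -0.26 with upper quartile scaling or DESeq2, so that list medians near 0 change sign with the scaling. Of the 72 called genes that are named with full values, which were chosen on these libraries so that their sign is no independent evidence, the sign changed under an alternative for Penk (-0.28) and Adora2a (-0.39) in the libraries with a background share of 40% or more that were not D2-side.

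With the replicate block 2787 genes were called. Same-numbered CC and CS libraries correlated at -0.425 to 0.694 over 8 pairs, 5 of them over 0.1, and 2 CC libraries correlated best with their own number, so that the numbers were not read as pairs.

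For other comparisons, the interaction gave 2975 calls with DESeq2 and 1193 with RLE scaling against 0, the D2 comparison 38 with DESeq2, 6 with RLE scaling and 0 without failing libraries against 91, and the difference of the lines 1961, 1146 and 0 against 3816. The CC minus CS log2 ratio of Drd1 to Drd2 was 0.345 and became -0.388 without CC1 and CC3, and the difference in total count, 598614, became -545715 without failing libraries.

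Genes that were not called changed sign as follows. Fos was at -0.03 without CC1 and CC3, -0.1 with the ribosomal covariate and -0.0009 at high background share without D2-side libraries. Npas4 was at -0.16, -0.23 and -0.25 in these, at -0.06 at high background share, -0.03 with limma and -0.003 with the background covariate, and Nr4a3 at -0.15 without CC1 and CC3. Homer1 was at -0.08 with DESeq2 or RLE scaling, -0.24 with the background covariate, -0.18 with the ribosomal covariate, -0.05 with total count and -0.19 with upper quartile scaling, -0.44 without CC1 and CC3, -0.14 without both kinds of doubtful library and -0.36 without failing libraries. In the same order Pde10a was at -0.04, -0.02, -0.06, not reversed, -0.19, -0.36, -0.06 and -0.31. Pde4b was at 0.29 at high background share, 0.1 without D2-side libraries there, 0.24 with limma and 0.002 with the replicate block, and Drd2 at -0.48 at high background share without D2-side libraries. With each library left out in turn, Homer1 ran from -0.20 to 0.75, Pde10a from -0.13 to 0.98 and Pde4b from -0.25 to 0.46.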
